A study of Mus musculus with 8 samples.

Results

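The genes described here encode voltage-gated calcium channels, voltage-gated sodium channels and HCN channels (hyperpolarization-activated, cyclic nucleotide-gated cation channels). They were taken by symbol, as every row of the deposited count table whose name starts with Cacna, Cacnb, Cacng, Scn or Hcn followed by a digit. Scn8a, Cacng4 and antisense or pseudogene symbols were left out by that rule. It found 42 of the 41128 genes in the table, and the rule itself uses no measured value, although earlier results of these data were known when it was chosen. Polyadenylated RNA came from dissected corpus callosum. The mice were of PLP-150Q, a strain known as a model in which the proteolipid protein promoter, active in oligodendrocytes, drives a mutant huntingtin fragment. The LAQ group held 4 mice (libraries 5 to 8) given LAQ (an agent that the labels do not spell out) at 5 mg/kg from 3 months of age for 2 months. The control group held 4 mice (libraries 1 to 4) of the same strain and age given purified water. All mice were 5 months old, all 8 libraries are of the PLP-150Q strain, and mice without the transgene were not analysed here. The labels give no litter, sex or batch, so p-values measure the spread between these libraries, which may in part be technical. Most of the channels below are known mainly from neurons, not from the oligodendrocytes in which the promoter is active.

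A voltage-gated calcium or sodium channel has a pore-forming alpha subunit, which senses the membrane potential, and smaller subunits that set how much channel reaches the surface and how fast it opens and closes. In calcium channels these are the beta and alpha2delta subunits, and some gamma subunits (the TARPs) act chiefly on AMPA-type glutamate receptors. HCN channels open when the membrane becomes more negative, carry the pacemaker current, and are tuned by cyclic AMP. The corpus callosum is a tract of myelinated axons whose cell bodies lie in the cortex, and channel proteins in those axons are largely made from messenger RNA kept in the cell body. In a dissected piece, channel transcripts can come from glia, from scattered neurons and from grey matter at its border.

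Each library held 8790749 to 12021429 counted reads. By edgeR's quasi-likelihood test on all 15771 genes above the expression filter, 0 genes had an adjusted p under 0.05 (0% of the genes tested), 1750 had an unadjusted p under 0.05 (11.1%), and DESeq2 called 129. The dissected pieces held both myelin and neurons. Myelinating oligodendrocyte markers summed to 12799 to 16733 CPM (counts scaled to library size by TMM) in LAQ libraries and 12063 to 13839 CPM in control libraries, and pan-neuronal markers to 6972 to 8869 CPM in LAQ libraries and 8449 to 9121 CPM in control libraries. LAQ 7 stood apart. It had the highest summed myelin and striatal markers and the lowest pan-neuronal markers, and values without it are given beside the log2 fold changes beyond 0.1 in size that it moves by over 1.5 times. In tissue of this kind, fewer cells of a type and less RNA per cell cannot be told apart.

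Of the 42 channel genes, 33 passed the filter and 9 did not. Per kilobase of annotated exon, Scn4b, a sodium channel beta subunit, stood at 69.9 ± 50.5 CPM per kb in LAQ and 68.6 ± 7.44 CPM per kb in control (SD, n = 4 each). Cacnb3, a calcium channel beta subunit, stood at 44.4 ± 3.00 and Hcn2 at 43.9 ± 8.67 CPM per kb in LAQ, against 58.9 ± 8.47 for Cacnb3 and 51.3 ± 4.28 for Hcn2 in control. Within each group the libraries of Cacnb3 and Hcn2 overlapped, so their order is not separated. Auxiliary subunits filled most of the upper ranks, and the first pore gene of a calcium channel, Cacna1h, ranked 14 of 33. At the low end, Scn7a, a sensor of extracellular sodium, stood at 0.240 ± 0.0581 CPM per kb in LAQ and 0.3545 ± 0.206 CPM per kb in control. These levels use the merged exons of each gene.

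**Figure D1:**
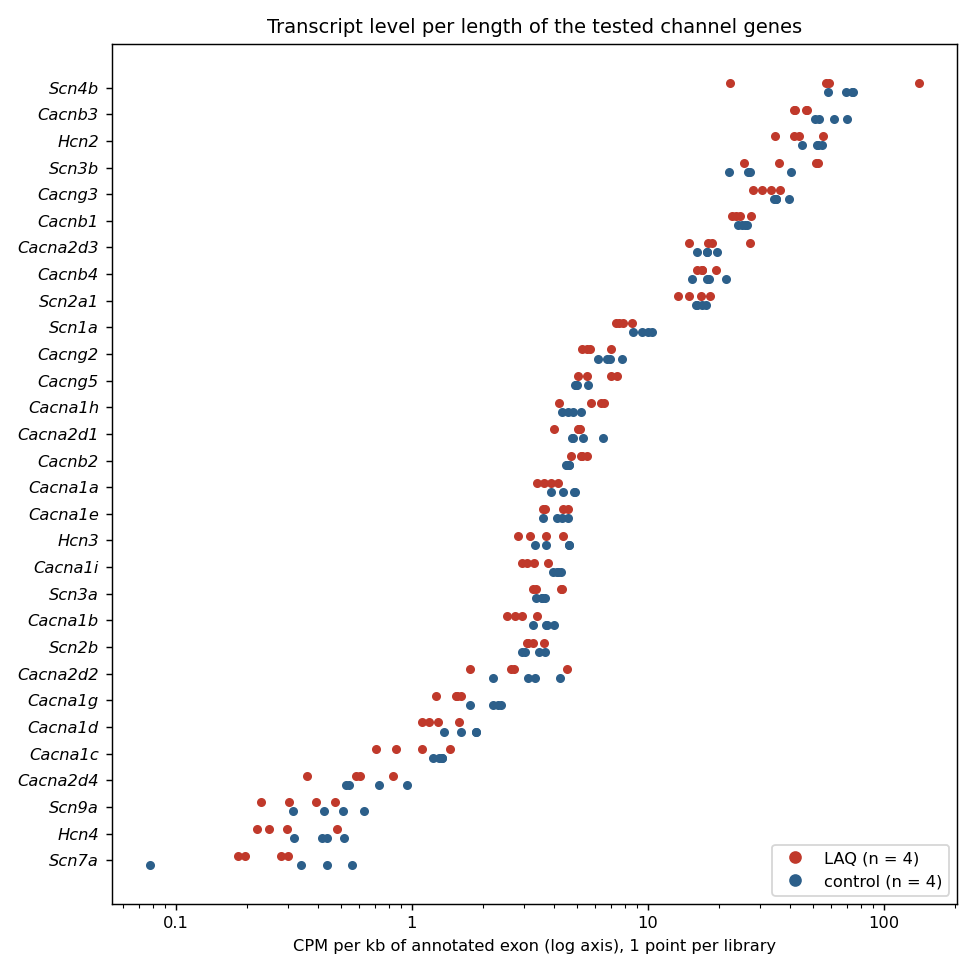
Level of 30 of the 33 tested channel genes in CPM per kb of annotated exon (log axis), 1 point per library, LAQ above control for each gene. Of the genes shown, Scn4b stands at the top and also shows a wide scatter among LAQ libraries.

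None of the 33 tested channel genes passed the adjusted test. In direction, 25 of 33 had a lower fitted level in LAQ and 8 a higher one, with a median log2 fold change of -0.16, beside -0.0012 over all tested genes, of which 50.3% were lower. An unadjusted edgeR p under 0.05 was reached by 10 channel genes (30.3%), against 11.1% of all genes. Of these, 7 were lower in LAQ, 5 of them pore genes of calcium channels, and 3 were higher, while over all genes 6.33% were lower and 4.77% higher at that level. In 6 channel genes (18.2%) the LAQ and control libraries did not overlap, against 6.39% of all genes (3.61% lower and 2.78% higher). Cacna1g, Cacna1i, Cacnb3 and Scn1a were among the 5 lower ones, and Cacnb2 was the higher one. Leaving out LAQ 7, edgeR called 4 of 33 channel genes at an adjusted p under 0.05 (339 genes or 2.13% of all tested), namely Cacna1b, Cacna1g, Cacna1i and Scn1a, all lower in LAQ. Leaving out both LAQ 5 and LAQ 7, edgeR called 0 of 33 channel genes (62 of all 16070 tested). With any single library other than LAQ 7 left out, edgeR called 0 channel genes and 0 of all genes. The smallest edgeR adjusted p of a channel gene was then 0.261 (without control 3) to 0.486 (without control 2). Without LAQ 7 the count of lower genes without overlap was 12 of 33, where 8.7% of all genes were so. It was 8 without control 1, where 4.98% of all genes were so. At an unadjusted p under 0.05 there were 16 channel genes without LAQ 7 (19.7% of all genes) and 17 with a pan-neuronal marker score as a covariate (20% of all genes). Other settings gave fewer than the main fit. There were 8 with the thalamic and habenular score as a covariate (1073 of all 15771 genes) and 9 with the hippocampal score (1250 of 15771). Without control 2 there were 7 (1254 of 15945). The channel genes were measured in the same 8 libraries, so these counts are not of independent events.

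**Figure D2:**
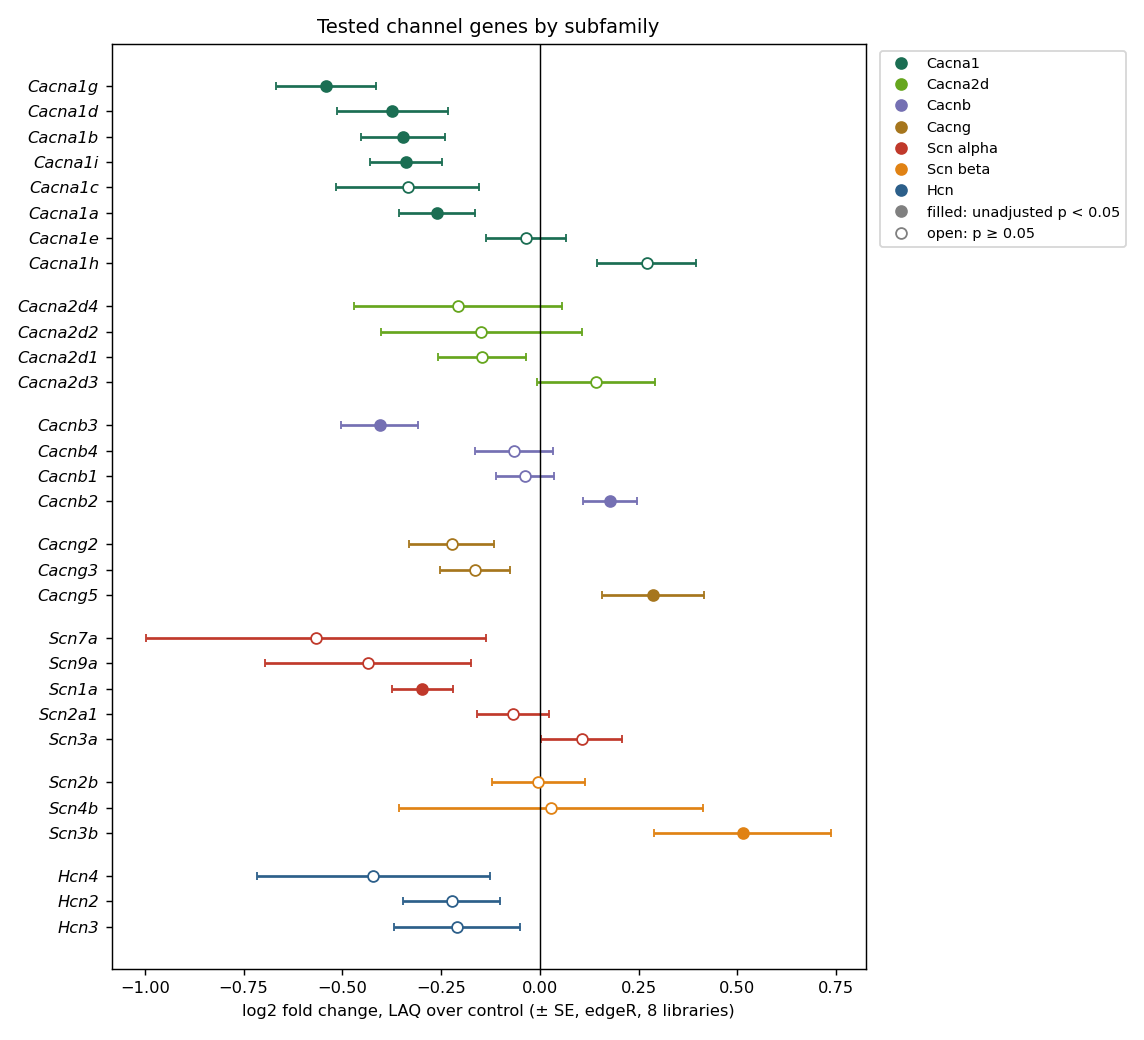
Log2 fold change of LAQ over control with its standard error for 30 of the 33 tested channel genes, grouped by subfamily, from edgeR on 8 libraries. Filled points have an unadjusted p under 0.05, and 5 of those 10 are Cacna1 genes lower in LAQ.

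Pore genes of calcium channels were lower in LAQ in 7 of the 8 tested, with a median log2 fold change of -0.34. Cacna1g encodes a T-type channel, opened by small depolarizations and known for burst firing of thalamic neurons. It stood at 15.7, 12.9, 16.4 and 15.6 CPM in LAQ 5 to 8, against 24.4, 23.5, 22.5 and 17.9 CPM in control 1 to 4. Every LAQ value lay below every control value, with control 4 the nearest, and the log2 fold change was -0.54 ± 0.13 (SE; edgeR adjusted p = 0.181; DESeq2 adjusted p = 0.0393). Cacna1i, the T-type channel of thalamic reticular neurons, stood at 30.5, 32.5, 37.2 and 29.0 CPM in LAQ, against 39.1, 40.9, 41.3 and 42.3 CPM in control. Its control libraries lay close together and above all LAQ libraries, and LAQ averaged 32.3 ± 3.58 CPM against 40.9 ± 1.34 CPM in control (SD, n = 4 each; log2 fold change -0.34 ± 0.09, SE; edgeR adjusted p = 0.236, or 0.0304 without LAQ 7). The remaining T-type gene, Cacna1h, went the other way, at 62.2, 56.3, 64.1 and 41.2 CPM in LAQ, against 42.3, 45.1, 47.4 and 50.9 CPM in control. In it 3 LAQ libraries were above the control range and LAQ 8 below it, so the groups overlapped (0.27 ± 0.13, SE; edgeR adjusted p = 0.451). As a share of the summed Cacna1 level per kb, the 3 T-type genes together made up 44.5% ± 3.24 in LAQ and 41.96% ± 1.67 in control (SD, n = 4 each).

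Cacna1b forms the N-type channel and Cacna1a the P/Q-type channel, both of which admit the calcium that triggers transmitter release at nerve terminals. Cacna1b stood at 25.2, 29.1, 33.8 and 27.2 CPM in LAQ, against 32.4, 37.0, 37.4 and 40.1 CPM in control. Only LAQ 7 reached into the control range (log2 fold change -0.35 ± 0.11, SE; edgeR adjusted p = 0.278), and without it the adjusted p was 0.0453. Cacna1a stood at 44.7, 41.4, 47.85 and 38.8 CPM in LAQ, against 44.6, 56.1, 50.2 and 55.9 CPM in control. Control 1 lay inside the LAQ range, so the groups overlapped, with a log2 fold change of -0.26 ± 0.10 (SE; edgeR adjusted p = 0.361). Among the L-type genes, which couple activity in the cell body to gene expression, Cacna1d stood at 16.3, 14.0, 20.0 and 14.97 CPM in LAQ, against 17.3, 23.6, 23.7 and 20.4 CPM in control (-0.37 ± 0.14, SE; edgeR adjusted p = 0.372). LAQ 7 was again the highest of its group and overlapped control 1. Cacna1c stood at 18.3, 14.9, 30.8 and 23.5 CPM in LAQ, against 26.0, 27.7, 28.5 and 28.4 CPM in control, so that 3 LAQ libraries lay below the control range and LAQ 7 above it. Its log2 fold change was -0.33 ± 0.18 (SE; edgeR adjusted p = 0.511), and -0.55 ± 0.14 without LAQ 7 (adjusted p = 0.0565). It was -0.19 ± 0.15 without LAQ 6 (edgeR adjusted p = 0.745) and -0.10 with the hippocampal marker score as a covariate. The R-type gene Cacna1e had the highest CPM of the subfamily and hardly differed in the fit, at 92.3, 90.6, 111 and 116 CPM in LAQ, against 91.1, 104, 116 and 109 CPM in control (-0.03 ± 0.10, SE).

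**Figure D3:**
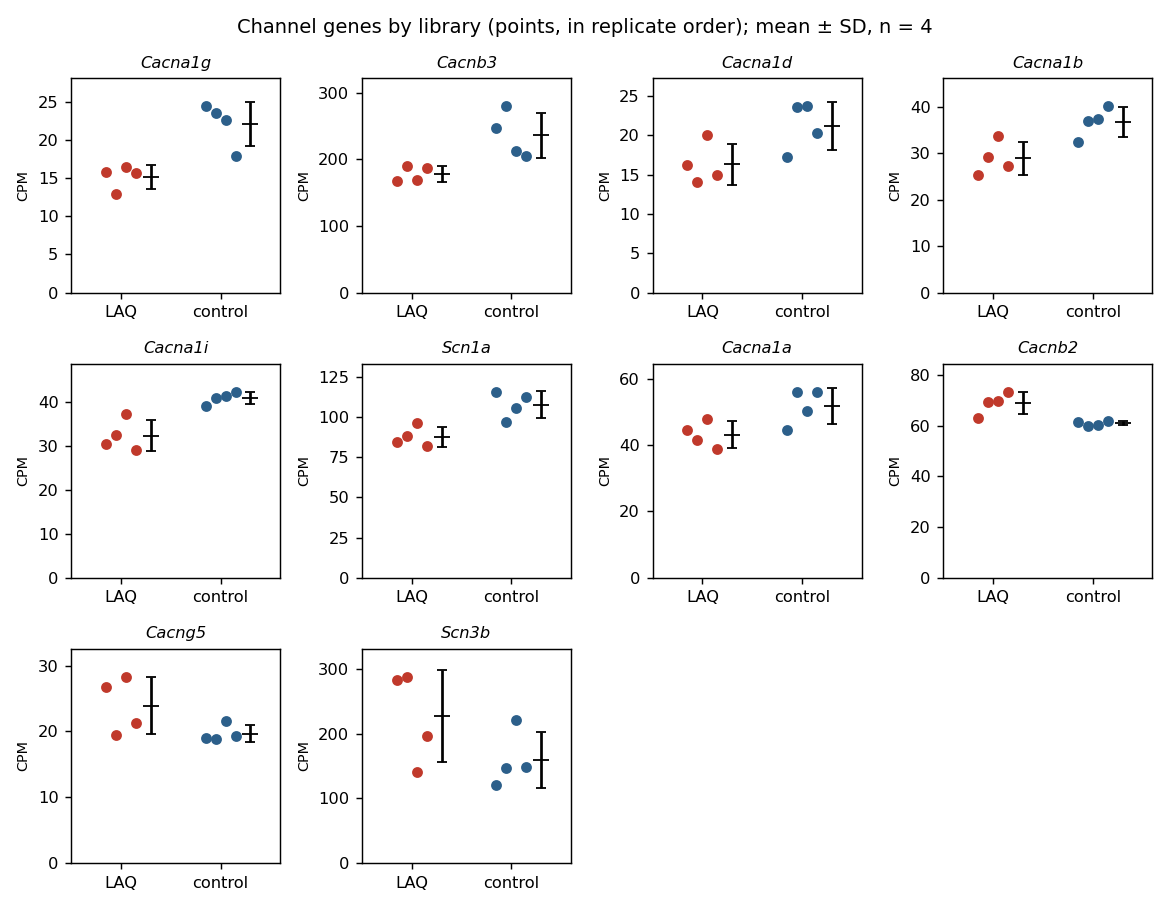
CPM of the 10 channel genes with an unadjusted p under 0.05, ordered by fold change. Points are the 4 LAQ and 4 control libraries in replicate order, and bars give mean ± SD. The third LAQ point is LAQ 7, which is the highest LAQ value for the Cacna1 genes shown and for Scn1a, and the lowest for Scn3b.

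The calcium channel beta subunits, which bind the pore inside the cell and carry it to the membrane, differed among themselves. Cacnb3 stood at 167, 189, 169 and 188 CPM in LAQ, against 247, 279, 213 and 206 CPM in control. All LAQ values were below all control values, at 178 ± 12.01 CPM in LAQ and 236 ± 34.0 CPM in control (SD, n = 4 each), which gave a log2 fold change of -0.41 ± 0.10 (SE; edgeR adjusted p = 0.190; DESeq2 adjusted p = 0.0342). Cacnb2 stood at 63.0, 69.2, 69.8 and 73.4 CPM in LAQ, against 61.4, 59.9, 60.4 and 61.7 CPM in control. Each LAQ library was above each control library, by a small margin for LAQ 5, and the log2 fold change was 0.18 ± 0.07 (SE; edgeR adjusted p = 0.383). Cacnb4 (-0.07 ± 0.10, SE) and Cacnb1 (-0.04 ± 0.07, SE), which also serves skeletal muscle, overlapped between the groups. Cacnb3 was the largest beta gene per kb in every library, with 48.4% ± 1.44 of the summed beta level in LAQ and 54.8% ± 2.98 in control (SD, n = 4 each), while Cacnb2 made up 5.67% ± 0.229 in LAQ and 4.32% ± 0.424 in control. Of Cacnb4's annotated exons, 16.0% overlap a transcript on the opposite strand, and since the strand setting of the counting is not given in the sources used here its count is uncertain.

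Promoters are shown for 4 of the 6 channel genes whose groups did not overlap, 3 lower and 1 higher in LAQ, so that the sequences behind these starts can be compared. RefSeq's promoter table (GRCm38.p6, 250 bases before to 50 after the start) held 31 of the 42 channel genes with 41 starts, among them Cacnb3, Cacnb2, Cacna1i and Scn1a. Where a gene had several starts, the one with more GC boxes is printed. Capitals mark the GC box GGGCGG or its reverse complement CCGCCC. Cacnb3 is at chr15:98634517-98634816 (plus strand), Cacnb2 at chr2:14604056-14604355 (plus), Cacna1i at chr15:80286988-80287287 (plus) and Scn1a at chr2:66440788-66441087 (minus).
Cacnb3: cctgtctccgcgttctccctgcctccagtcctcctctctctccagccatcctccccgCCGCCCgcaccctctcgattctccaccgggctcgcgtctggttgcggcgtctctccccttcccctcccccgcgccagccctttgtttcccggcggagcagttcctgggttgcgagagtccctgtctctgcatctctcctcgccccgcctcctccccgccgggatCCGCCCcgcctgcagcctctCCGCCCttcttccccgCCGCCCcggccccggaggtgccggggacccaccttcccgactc
Cacnb2: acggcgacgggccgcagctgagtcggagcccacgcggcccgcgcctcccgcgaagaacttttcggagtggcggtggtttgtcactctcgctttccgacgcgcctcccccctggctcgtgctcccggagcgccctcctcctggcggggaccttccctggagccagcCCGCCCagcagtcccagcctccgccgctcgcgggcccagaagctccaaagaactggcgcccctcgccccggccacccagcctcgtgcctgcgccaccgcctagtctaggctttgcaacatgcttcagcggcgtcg
Cacna1i: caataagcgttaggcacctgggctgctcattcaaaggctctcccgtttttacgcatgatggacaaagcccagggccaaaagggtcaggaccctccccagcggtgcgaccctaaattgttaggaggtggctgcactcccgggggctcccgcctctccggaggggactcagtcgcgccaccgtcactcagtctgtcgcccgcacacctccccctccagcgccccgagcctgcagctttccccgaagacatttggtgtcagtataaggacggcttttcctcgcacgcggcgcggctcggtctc
Scn1a: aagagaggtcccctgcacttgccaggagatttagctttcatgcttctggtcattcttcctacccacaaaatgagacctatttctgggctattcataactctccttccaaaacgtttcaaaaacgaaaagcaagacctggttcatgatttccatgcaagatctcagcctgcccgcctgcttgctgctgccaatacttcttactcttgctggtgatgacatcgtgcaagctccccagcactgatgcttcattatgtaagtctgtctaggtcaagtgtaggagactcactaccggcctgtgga
The Cacnb3 window holds 4 GC boxes at 72.0% G and C, the Cacnb2 window 1 at 71.7%, and the Cacna1i (62.7% G and C) and Scn1a (47.3%) windows none. The starts not printed hold 1 GC box at 59.7% G and C for Cacnb3 and 0 at 44.0% for Cacnb2. Over all channel starts, 18 of 41 (43.9%) held a GC box on either strand, against 35.7% of all 32851 promoters in the table. The TATA box letters TATAAA, on either strand, were in 2 of 41 (4.88%), those of Cacna1d and Scn2a1, against 13.6% of all promoters. No channel start held the cAMP response element TGACGTCA (1.79% of all promoters). Both strands were searched, and no motif shares its letters with another.

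The alpha2delta subunits, of which those of Cacna2d1 and Cacna2d2 bind gabapentin, raise the number of calcium channels at the surface. Cacna2d3, with the highest CPM of the 4, stood at 130.4, 157, 237 and 164 CPM in LAQ, against 141, 172, 156 and 155 CPM in control. LAQ 7 was the highest of all 8 libraries and LAQ 5 the lowest, with a log2 fold change of 0.14 ± 0.15 (SE; edgeR adjusted p = 0.769), or -0.05 without LAQ 7. Cacna2d1 was lowest in LAQ 7, at 49.8 CPM against 63.0 to 64.0 CPM in the other LAQ libraries and 59.6 to 80.3 CPM in control (-0.15 ± 0.11, SE, or -0.065 without LAQ 7 and -0.040 without control 3). Cacna2d2 (-0.15 ± 0.25, SE, or -0.46 without LAQ 7) and Cacna2d4 (-0.21 ± 0.26, SE, or -0.42 without LAQ 7) overlapped between the groups, and Cacna2d2 ranged from 14.1 to 36.2 CPM in LAQ and from 17.6 to 33.9 CPM in control.

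Among the gamma subunits, Cacng3, a TARP of cortical neurons, stood at 77.5, 92.7, 101 and 85.2 CPM in LAQ, against 97.0, 110.4, 95.8 and 96.8 CPM in control. LAQ 7 alone lay inside the control range (-0.16 ± 0.09, SE; edgeR adjusted p = 0.515). Cacng2, stargazin, which brings AMPA receptors to the synapse, ranged from 29.2 to 38.6 CPM in LAQ and from 33.9 to 42.9 CPM in control, with LAQ 7 again the highest of its group (-0.22 ± 0.11, SE; edgeR adjusted p = 0.466). Cacng5, a TARP that alters how AMPA receptors close, was on the other side, at 26.8, 19.4, 28.3 and 21.2 CPM in LAQ, against 19.0, 18.8, 21.5 and 19.3 CPM in control. LAQ 5 and LAQ 7 were above all control libraries, and LAQ 6 and LAQ 8 within their range (0.29 ± 0.13, SE; edgeR adjusted p = 0.447). Without LAQ 7 that difference was 0.19, and 0.06 without both LAQ 5 and LAQ 7.

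Among the tested sodium channel alpha genes, which leave out Scn8a by the selection rule, Scn1a and Scn2a1 had the highest levels per kb. Scn1a, whose loss causes Dravet syndrome and which carries most sodium current of fast-spiking interneurons, stood at 84.4, 88.1, 96.1 and 82.3 CPM in LAQ, against 116, 97.0, 106 and 112 CPM in control. The groups did not overlap, although LAQ 7 and control 2 nearly touched, and the means were 87.7 ± 6.10 CPM in LAQ and 108 ± 8.35 CPM in control (SD, n = 4 each). The log2 fold change was -0.30 ± 0.08 (SE; edgeR adjusted p = 0.228, or 0.0395 without LAQ 7; DESeq2 adjusted p = 0.0883). Scn2a1 (now named Scn2a), the channel of excitatory axons and of axons before they are myelinated, stood at 215, 234, 191 and 172 CPM in LAQ, against 207, 216, 225 and 204 CPM in control. The LAQ libraries lay on both sides of the control range (-0.07 ± 0.09, SE; edgeR adjusted p = 0.830). Scn3a, most active before birth, stood at 42.01, 53.4, 53.9 and 40.7 CPM in LAQ, against 44.3, 44.4, 46.0 and 42.1 CPM in control, likewise on both sides (0.11 ± 0.10, SE; edgeR adjusted p = 0.749), with 0.040 without LAQ 7 and 0.045 without LAQ 6. Per kb, Scn2a1 made up 56.0% ± 3.67 of the tested alpha level in LAQ and 54.0% ± 2.11 in control, and Scn1a 27.8% ± 2.22 in LAQ and 31.2% ± 2.30 in control (SD, n = 4 each). Scn9a, a channel of pain-sensing neurons, was scarce, at 2.95 to 6.03 CPM in LAQ and 4.01 to 8.03 CPM in control (-0.44 ± 0.26, SE, or -0.28 without LAQ 5 and -0.25 without control 4). Scn7a ranged from 1.35 to 2.19 CPM in LAQ and from 0.572 to 4.12 CPM in control (-0.57 ± 0.43, SE, or -0.28 without control 2 and -0.88 without control 3).

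Among the beta subunits of sodium channels, Scn3b and Scn4b differed widely between libraries of the LAQ group. Scn3b, a beta subunit strong in hippocampus and cortex, stood at 283, 288, 141 and 197 CPM in LAQ, against 121, 146, 222 and 148 CPM in control. LAQ 5 and LAQ 6 were above all control libraries, whereas LAQ 7 and LAQ 8 were within their range (0.51 ± 0.22, SE; edgeR adjusted p = 0.434, or 0.0571 without LAQ 7). Scn4b, known for its high level in striatal projection neurons, stood at 112, 285, 704 and 292 CPM in LAQ, against 368, 366, 288 and 344 CPM in control. LAQ 7 was 6.29 times LAQ 5, the lowest library, and the group means hardly differed, at 348 ± 251 CPM in LAQ and 342 ± 37.1 CPM in control (SD, n = 4 each; log2 fold change 0.03 ± 0.38, SE, or -0.57 without LAQ 7). Scn2b, which is linked to the pore by a disulfide bond, was even, at 14.3 to 16.97 CPM in LAQ and 13.7 to 17.2 CPM in control.

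Hcn2, Hcn3 and Hcn4 each had a log2 fold change below 0, and none of them reached an unadjusted edgeR p under 0.05. Hcn2, the main HCN gene of thalamus and many other brain regions, stood at 111, 140.4, 177 and 133 CPM in LAQ, against 176, 169, 144 and 166 CPM in control. Lower values were found in LAQ 5, LAQ 6 and LAQ 8 than in any control library, and LAQ 7 was the highest of all 8 (-0.22 ± 0.12, SE; edgeR adjusted p = 0.518). Without LAQ 7 the log2 fold change of Hcn2 was -0.36 ± 0.09 (adjusted p = 0.0606), and without LAQ 5 it was -0.12 ± 0.11 (edgeR adjusted p = 0.791). In share per kb of the 4 genes, Hcn2 held 87.3% ± 2.08 in LAQ and 88.0% ± 1.62 in control (SD, n = 4 each). Hcn3 (-0.21 ± 0.16, SE, or -0.33 without LAQ 7 and -0.12 without LAQ 6) ranged from 11.8 to 18.1 CPM in LAQ and from 13.9 to 19.3 CPM in control, and 17.1% of its exons overlap Pklr on the opposite strand, which makes its count uncertain. Hcn4, the pacemaker gene of the heart, was scarce at 1.35 to 2.96 CPM in LAQ and 1.94 to 3.15 CPM in control (-0.42 ± 0.29, SE, or -0.72 without LAQ 7).

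The spread of channel transcripts was the wider one among LAQ libraries, as it was over all genes. The coefficient of variation had a median of 15.02% in LAQ and 9.95% in control over the 33 genes, against 12.7% in LAQ and 9.98% in control over all tested genes, and it was the larger in LAQ for 25 of 33 channel genes (75.8%, against 63.7% of all genes). Without LAQ 7 the LAQ medians were 12.01% for the channel genes and 10.7% for all genes. LAQ 5 gave the lowest of the 8 values in 10 of 33 channel genes and the highest in 0, and LAQ 7 the highest in 9 and the lowest in 3. Over all 15771 tested genes, LAQ 5 was lowest in 2303 and highest in 2336, and LAQ 7 highest in 2492 and lowest in 2541. With both directions pooled, LAQ 5 was the highest or lowest library in 30.3% of the channel genes and 29.4% of all genes. LAQ 7 was so in 36.4% of the channel genes and 31.9% of all genes. The pooled shares do not show the direction. Regional markers moved with several of these genes. The 8 measured striatal markers of 9 listed summed to 615, 1645, 4130 and 2153 CPM in LAQ 5 to 8 and to 1649 to 2153 CPM in control, so that LAQ 5 was lowest and LAQ 7 highest, as for Scn4b and Cacna2d3. With the striatal marker score as a covariate, the log2 fold change of Scn4b was -0.03 ± 0.08 (SE), beside 0.03 ± 0.38 (SE) without it. The fold change was near 0 in both fits, and the standard error was smaller with the score. The 8 hippocampal markers, all 8 with a log2 fold change above 0, summed to 833, 735, 533 and 587 CPM in LAQ and to 409.8 to 599 CPM in control, highest in LAQ 5 and LAQ 6 as for Scn3b. With their score as a covariate, Scn3b stood at -0.05 and Hcn2 at 0.03. Hcn2 was below 0 with the striatal (-0.18), thalamic and habenular (-0.16), pan-neuronal (-0.37), cortical excitatory (-0.35) and myelinating oligodendrocyte (-0.52) scores. Scn3b was above 0 with these scores, from 0.31 with the thalamic and habenular score to 1.36 with the myelinating oligodendrocyte score. No marker of these lists was at 0 in any library.

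**Figure D4:**
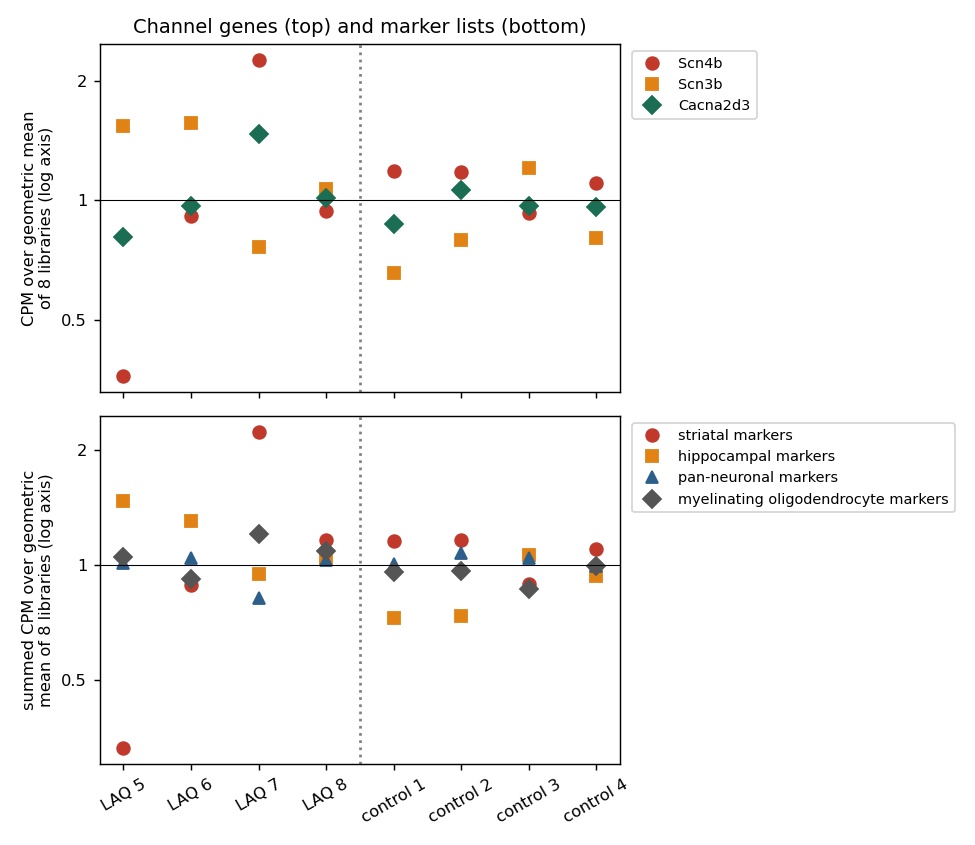
Top, CPM of Scn4b, Scn3b and Cacna2d3 in each library divided by the geometric mean of the 8 libraries (log axis). Bottom, summed CPM of 4 marker lists on the same kind of scale. Scn4b and the striatal markers are both lowest in LAQ 5 (112 CPM for Scn4b) and highest in LAQ 7 (704 CPM), and Scn3b is high in LAQ 5 and LAQ 6, where hippocampal markers are high.

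Thalamic and habenular markers, like Cacna1g and Cacna1i but unlike Cacna1h, were mostly on the lower side in LAQ. Of 8 measured, 7 had a log2 fold change below 0, with a median of -0.37, and 0 passed the adjusted test. They summed to 337, 232, 377 and 226 CPM in LAQ 5 to 8 and to 343 to 483 CPM in control, so that the groups overlapped. With that score as a covariate, Cacna1g stood at -0.41 (edgeR adjusted p = 0.728), Cacna1i at -0.29 (adjusted p = 0.733), and 0 of all 15771 genes passed, as was so without the covariate. Of the 12 pan-neuronal markers, 10 had a log2 fold change below 0, with a median of -0.07, and with their score as a covariate edgeR called 2 channel genes (146 genes or 0.926% of all tested). These were Scn1a (-0.37 ± 0.07, SE; adjusted p = 0.0484) and Cacna1i (-0.43 ± 0.09, SE; adjusted p = 0.0489). Of the 10 myelinating oligodendrocyte markers, all 10 had a log2 fold change above 0, with a median of 0.19. With their score as a covariate 2 channel genes were called (365 genes or 2.31%), namely Cacna1c (-0.97 ± 0.21, SE; adjusted p = 0.0382) and Scn3b (1.36 ± 0.19, SE; adjusted p = 0.0119). That score was higher in every LAQ library (-0.21 to 1.54) than in any control library (-1.09 to -0.31). The groups thus shared no range of it, and this fit cannot separate the score well from LAQ. DESeq2, without a covariate, called Cacna1g and Cacnb3 (129 genes or 0.845% of those adjusted). Cacna1i and Scn1a were called both with the pan-neuronal covariate and without LAQ 7, and Cacna1g both by DESeq2 and without LAQ 7. The pan-neuronal score was -1.51 in LAQ 7 and -0.19 to 0.66 in the other libraries. That covariate and the omission of LAQ 7 are therefore not independent settings. Apart from the values given, the part that regional markers have in these differences was not tested.

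**Figure D5:**
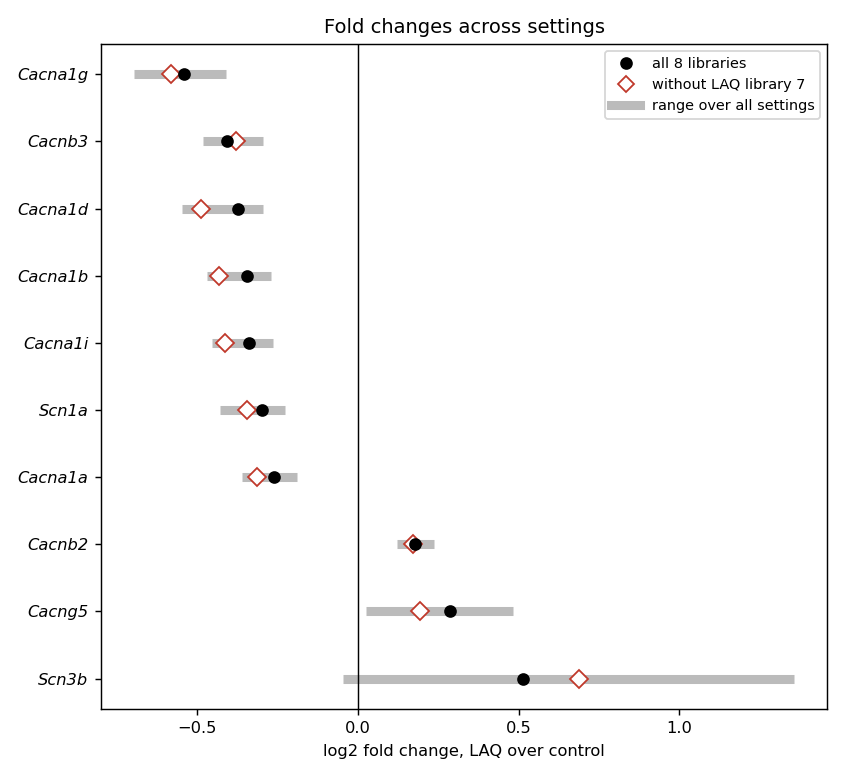
Log2 fold change of the 10 channel genes with an unadjusted p under 0.05, with all 8 libraries (black), without LAQ 7 (open diamonds) and the range over all settings (grey bars). Cacna1g, Cacnb3, Cacna1d, Cacna1b, Cacna1i, Scn1a and Cacna1a stay below 0 across the bars, and the bar of Scn3b crosses 0.

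Genes that work with the channels were taken as 4 lists, 70 genes in all, all of them tested, and 0 passed edgeR's adjusted test. An unadjusted edgeR p under 0.05 was reached by 11 of these 70 genes. Over all genes it was reached by 1750 of 15771 (11.1%, with 6.33% lower and 4.77% higher). Among 23 partners of calcium channels and TARPs, 3 were lower and 2 higher at that level. Cabp1, a calmodulin relative that binds calcium channels, averaged 58.1 ± 8.37 CPM in LAQ and 87.3 ± 6.91 CPM in control (SD, n = 4 each), and its log2 fold change was -0.59 ± 0.10 (SE). The LAQ and control libraries of Cabp1 did not overlap, and its edgeR adjusted p of 0.136 was the smallest value given, which 13 genes shared. Dlg4, the PSD-95 scaffold to which TARPs bind, stood at -0.37 ± 0.09 (SE), and Camk2b, a calcium-dependent kinase subunit, at 0.23 ± 0.08 (SE). Of 16 sodium channel partners 1 was higher and 0 lower, the ubiquitin ligase gene Nedd4l at 0.19 ± 0.09 (SE), while the axonal spectrin Sptbn4 stood at -0.22 ± 0.10 (SE) with an unadjusted edgeR p of 0.0522. Among 8 HCN partners, Prkg2, a cyclic GMP-dependent kinase, was lower (-0.74 ± 0.19, SE) and Kcne2, a small membrane subunit abundant in choroid plexus, was higher (1.02 ± 0.43, SE). Kcne2 stood at 29.6, 11.5, 12.5 and 17.3 CPM in LAQ, against 11.6, 3.12, 4.35 and 15.1 CPM in control, so the groups overlapped. All 5 choroid plexus markers also had a log2 fold change above 0, with a median of 0.79. They summed to 3607, 1273, 1628 and 3485 CPM in LAQ, against 2022, 384, 786 and 2469 CPM in control, and their part in the difference was not tested. Magi2, a membrane scaffold, stood at -0.15 ± 0.07 (SE). Of 23 genes for leak channels, calcium stores and calcium pumps, 2 were lower and 1 higher at that level. Atp2b4, a plasma membrane calcium pump, averaged 22.6 ± 3.86 CPM in LAQ and 32.3 ± 3.39 CPM in control (SD, n = 4 each; log2 fold change -0.51 ± 0.13, SE), with no overlap. Atp2b1 stood at 0.20 ± 0.08 (SE) and Unc80, of the sodium leak channel complex, at -0.23 ± 0.09 (SE). The groups also did not overlap in Dlg4, Prkg2 and Magi2 (6.39% of all genes had no overlap). DESeq2 called Cabp1, Prkg2 and Atp2b4 (129 genes or 0.845% of those adjusted).

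The 9 channel genes below the filter summed to between 1 and 32 reads over the 4 LAQ libraries and between 2 and 30 over the 4 control libraries. Cacna1s, the skeletal muscle channel, had 17 reads in LAQ and 30 in control, and Cacna1f, the retinal channel, 22 in LAQ and 23 in control. Scn4a, the skeletal muscle sodium channel, had 1 read in LAQ and 2 in control, Scn10a had 6 in LAQ and 7 in control, and Scn11a, like Scn10a a gene of pain-sensing neurons, had 7 in LAQ and 4 in control. Cacng1 of skeletal muscle had 24 reads in LAQ and 15 in control, Cacng6 had 16 in LAQ and 4 in control, Cacng7 had 32 in LAQ and 27 in control, and Cacng8 had 19 in LAQ and 13 in control. A difference in these genes was not detectable at this depth.

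In GRCm38 with the GENCODE M21 annotation, Cacna1g lies on chromosome 11 from 94408391 to 94474198, Cacna1i on chromosome 15 from 80287238 to 80398279 and Cacnb3 on chromosome 15 from 98630840 to 98644529. Cacnb2 lies on chromosome 2 from 14603088 to 14987908 and Scn1a on chromosome 2 from 66270778 to 66440840, where Scn3a, Scn2a1, Scn9a and Scn7a are its neighbours between 65457118 and 66784914. Within that cluster the log2 fold change was 0.11 ± 0.10 (SE) for Scn3a and below 0 for the other genes. These stood at -0.07 ± 0.09 (Scn2a1), -0.30 ± 0.08 (Scn1a), -0.44 ± 0.26 (Scn9a) and -0.57 ± 0.43 (Scn7a; SE). Scn2b and Scn4b are neighbours on chromosome 9, from 45117782 to 45130070 and from 45138395 to 45154152, and the highest library was 1.25 times the lowest for Scn2b and 6.29 times for Scn4b.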

How the data were processed

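The authors deposited whole-number counts for each symbol, 1 column per library, and 0 columns went unused. Their other deposited table is a normalized signal that equalled the counts divided by 1 size factor per library (largest relative deviation 5.1e-15) and was used only for that check. STAR 2.5.2b, HTSeq, DESeq2 1.10.1, the build GRCm38.p3 and bcl2fastq 2.17.1.14 are named in the submitters' processing notes. The annotation release, strand setting and filters are not given in the sources used here. Groups came from the sample titles, and the design text gives 4 mice per group, with no sex, litter or batch in the labels. Libraries of a group differed beyond sampling noise (chi-square per degree of freedom 4.07 to 23.9).

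Genes were kept by edgeR's filterByExpr (minimum count 10, minimum total 15), which left 15771 of 41128. Counts were scaled by TMM and tested by the quasi-likelihood F test of edgeR 4.0.16 (R 4.3.3; limma 3.58.1 for voom) on 8 libraries without covariates, with Benjamini-Hochberg adjustment over all genes tested and a threshold of 0.05. Standard errors are the log2 fold change over the root of F. Counts cover all 33 tested channel genes, of which 3 are not reported here by name. Values in each library are given for those with an unadjusted p under 0.05, those whose groups do not overlap, the highest of each subfamily, Hcn2 and the brain sodium channel alpha genes. Up to 3 partners of smallest p per list are named, by mean or fold change. Cacna1c and Cacna1h were added to these after their values had been seen. Marker scores are mean z scores over log2 CPM (prior count 2). Exon length and GC content came from GENCODE M21, matched for 98.3% of tested genes and all 42 channel genes. Simulated counts with known changes served to test the scripts' fits. Alternatives covered normalization, filters, DESeq2 1.42.0, voom, robust edgeR, marker scores as covariates, loess correction for length and GC content, an adjusted p under 0.1, and each library left out in turn. The members, lists and tests were chosen with earlier results of these data known.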

Additional observations from a re-analysis of the deposited data

Results flagged for a closer look

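In Cacna2d1 (49.8 CPM), LAQ 7 lay far below the other 3 LAQ libraries, with a gap to the nearest of 92.9% of the group's range. In Cacng3, control 2 (110.4 CPM) lay above the other 3 control libraries by 91.5% of the range. Of 60 groups of 4 libraries examined, 2 were marked in this way, and chance marks about 1 in 20.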

How the results depend on the processing

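Over the 30 channel genes reported by name and 24 alternatives (720 fits of a gene), direction and side of the threshold were as in the main result in 662, 10 came to pass the threshold, and 48 turned in sign. No channel gene passed the threshold in the main result. Scn3b, which turned in sign with the hippocampal score, was past the threshold with the myelinating oligodendrocyte score. Past the threshold, of all genes, were 25 without a filter, 129 by DESeq2, 146 with the pan-neuronal score, 365 with the myelinating oligodendrocyte score, 23 with the striatal score and 62 without LAQ 5 and 7, and 0 to 339 when 1 library was left out. Channel genes past it were 2 by DESeq2, 2 with the pan-neuronal score and 2 with the myelin score, and 0 to 4 when 1 library was left out. They were 0 without a filter, 0 with the striatal score and 0 without LAQ 5 and 7. At an unadjusted p under 0.05 were 17 channel genes with the pan-neuronal score, 15 with the striatal and 14 with the myelin score. There were 11 with the cortical, 9 with the hippocampal and 8 with the thalamic score, and 7 to 16 when 1 library was left out. Partner genes past the threshold were 1 without a filter, 3 by DESeq2, 4 with the pan-neuronal, 9 with the myelin and 1 with the striatal score, and 0 to 6 when 1 library was left out. Channel genes without overlap were 5 to 12 (lower in LAQ) and 1 to 2 (higher) when 1 library was left out. Omitting LAQ 7 gave the 339, 4, 16, 6 and 12.

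Signs turned as follows in log2 fold change, and the cause was not tested. With the cortical score Scn2a1 was 0.16, Scn4b -0.66, Cacnb1 0.0575 and Cacna2d3 -0.12. With the myelin score Scn2a1 was 0.15, Cacna2d1 0.16, Scn4b -1.02, Cacnb1 0.11 and Cacna2d3 -0.22. With the pan-neuronal score Scn4b was -0.60, Cacnb1 0.0042 and Cacna2d3 -0.0625. The hippocampal score, chosen after seeing the data like the striatal score and the omission of LAQ 5 and 7, gave Cacna1e 0.010, Cacnb4 0.11, Scn3b -0.046, Cacna2d2 0.29 and Hcn2 0.027. With the striatal score Scn2b was 0.0076 and Scn4b -0.029, and with the thalamic score Cacnb4 was 0.042 and Scn2b 0.019. Without LAQ 5 and 7 Scn4b was -0.24 and Cacnb1 0.053. Length correction gave Cacna1e 0.034 and Scn2b 0.0075, and GC correction Scn2b 0.011 and Cacnb1 0.041. Scn2b was 0.0010 by DESeq2, 0.00019 by voom and 0.0082 without a filter, and Scn4b -0.26 by voom.

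When 1 library was left out, Scn7a ranged from -0.88 to -0.28, Scn9a from -0.60 to -0.25, Cacna1e from -0.097 to 0.021, Cacnb4 from -0.13 to 0.027, Scn2a1 from -0.14 to 0.0080, Cacna2d4 from -0.42 to 0.0069, Scn2b from -0.061 to 0.058, Scn4b from -0.57 to 0.32, Cacna2d2 from -0.46 to 0.030, Cacnb1 from -0.095 to 0.0022 and Cacna2d3 from -0.053 to 0.26. No paired analysis was possible because the groups share no replicate numbers (1 to 4 and 5 to 8). With 8790749 to 12021429 reads a library, genes of a few reads carry no information on a difference.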
